A study of Mus musculus with 36 samples.

Results

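The genes described here are 10 hypoxia-responsive and glycolytic genes of the mouse liver, Adm, Cited2, Vegfa, Hif1a, Egln3, Pfkfb3, Bnip3, Slc2a1, Ndrg1 and Hk2. They were listed by gene name, with earlier results of these data known. All 10 were found among the 34829 genes of the deposited table. Pfkfb3, Adm, Cited2, Hif1a and Hk2 rose by 4 h after lipopolysaccharide (LPS) at both temperatures. The temperatures parted later. Adm, Cited2 and Pfkfb3 were still high at 12 h in livers from mice at 22 °C but much lower at 30 °C, and Hif1a, Bnip3 and Pfkfb3 were lower at 30 °C than at 22 °C at 24 h.

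Liver RNA came from 36 samples of the strain labelled C57BL6/J, at an ambient temperature of 22 °C or 30 °C. Mice at 30 °C spend little energy on heat production, whereas 22 °C is ordinary room temperature. LPS, the endotoxin of Gram-negative bacteria, was injected, and livers were collected at 0, 4, 12 and 24 h. The 22 °C groups held 4, 4, 5 and 5 samples at these times and the 30 °C groups held 5, 4, 4 and 5. No mutation or transgene is named for any group. The labels name no group without LPS at the later times, so a difference from 0 h covers LPS together with anything else that changed with time, and these cannot be told apart. Age, sex and LPS dose were not given in the sources used here. Nothing in the labels ties each sample to its own animal, and p-values therefore measure only how far these samples spread, which may be technical.

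Cells adjust to low oxygen mainly through the hypoxia-inducible factors (HIFs), in which an unstable alpha subunit such as Hif1a pairs with the stable partner Arnt. With oxygen present, prolyl hydroxylases, among them Egln3, mark the alpha subunit for the ubiquitin ligase that contains Vhl, and the protein is destroyed. Inflammatory signals through NF-kB also raise Hif1a mRNA, and HIF targets include glycolytic enzymes, the glucose carrier Slc2a1, the vessel-acting peptides Adm and Vegfa, and Cited2, a protein that competes with HIF for its coactivators. Transcript levels do not show the amount or activity of HIF protein.

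HIF binds a short core sequence, ACGTG or GCGTG, in its target promoters. Promoter sequences, the 250 bases before the RefSeq start of transcription in build GRCm38.p6, were found for 9 of the 10 genes in 11 entries. At least 1 core on either strand lay in 10 of the 11 entries, whereas 38.6% of 32851 RefSeq promoter windows of the same length held 1. The Vegfa cores lay only in the entry at chr17:46025164-46025413, inside the gene, where 218 of the 250 bases are annotated as exon. The Vegfa entry just before the annotated start held 0. The windows of the 9 genes were 50.8% to 72.4% G or C, and this share was not computed for all windows. The palindrome CACGTG was counted on both strands. The NF-kB motif, searched on both strands, was found for 1 gene, Vegfa, and in 7.25% of all windows. A match describes letters only and does not show binding. The windows of the 5 genes with the clearest time courses are printed 5′ to 3′ on the strand of the gene, with each core or its reverse complement (CACGT or CACGC) in capitals. They lie at chr7:110627407-110627656 on the plus strand for Adm, chr10:17722978-17723227 (plus) for Cited2, chr2:11502091-11502340 (minus, 1 of 2 entries) for Pfkfb3, chr12:73907617-73907866 (plus) for Hif1a and chr7:138909507-138909756 (minus) for Bnip3.
Adm: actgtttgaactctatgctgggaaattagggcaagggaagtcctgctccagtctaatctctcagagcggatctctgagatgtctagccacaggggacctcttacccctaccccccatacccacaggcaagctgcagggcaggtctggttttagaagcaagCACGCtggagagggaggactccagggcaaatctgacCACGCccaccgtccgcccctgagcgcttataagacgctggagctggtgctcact
Cited2: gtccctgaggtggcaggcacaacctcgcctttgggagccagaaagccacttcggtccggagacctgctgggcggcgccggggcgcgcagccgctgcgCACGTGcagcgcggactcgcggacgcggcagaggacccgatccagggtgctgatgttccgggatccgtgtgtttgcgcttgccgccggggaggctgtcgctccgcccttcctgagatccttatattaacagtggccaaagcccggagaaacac
Pfkfb3: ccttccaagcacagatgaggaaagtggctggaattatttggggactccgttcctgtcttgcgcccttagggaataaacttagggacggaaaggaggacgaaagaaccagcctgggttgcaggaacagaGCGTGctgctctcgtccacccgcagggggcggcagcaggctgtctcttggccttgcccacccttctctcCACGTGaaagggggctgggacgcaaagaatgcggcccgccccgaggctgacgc
Hif1a: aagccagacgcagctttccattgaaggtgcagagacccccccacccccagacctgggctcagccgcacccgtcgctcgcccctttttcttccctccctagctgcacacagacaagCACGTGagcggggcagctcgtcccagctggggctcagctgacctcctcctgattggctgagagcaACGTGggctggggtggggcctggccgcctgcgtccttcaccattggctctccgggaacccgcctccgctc
Bnip3: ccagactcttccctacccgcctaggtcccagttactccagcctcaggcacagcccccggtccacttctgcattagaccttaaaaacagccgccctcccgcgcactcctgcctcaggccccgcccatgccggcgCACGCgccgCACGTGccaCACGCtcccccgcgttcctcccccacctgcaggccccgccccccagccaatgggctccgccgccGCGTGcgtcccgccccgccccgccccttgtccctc
Adm held 2 cores, at 90 and 54 bases before the start. Bnip3 had 5 matches, the most of the 5 windows shown, 2 of them from a palindrome. The pair at 153 and 152 bases in Cited2 was also 1 palindrome. The Pfkfb3 window shown lies inside the gene and held 3 matches, 2 of them from a palindrome. The other Pfkfb3 entry, at chr2:11553930-11554179 and overlapping the annotated start, held 1. The Hif1a window also lies inside the annotated gene, which starts at 73901375 on chromosome 12.

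Values are the deposited signal (scaled reads per base), which rises with a gene's reads and is not a count, so levels are compared between samples and not between genes. The libraries held an estimated 557000 to 2744000 reads, and 3 reads of a gene with 1 transcript were worth an estimated 1.33 to 5.05 signal units. Values at or under that level carry little information. Of the 10 genes only Egln3 is annotated with 1 transcript, so read numbers of the others are approximate. Hk2, for example, was 0.325 in replicate 2 at 22 °C and 0 h, where 1 read was worth 1.10. The libraries resembled others of their group (median correlation over tested genes of 0.839 to 0.928), except for replicate 4 at 30 °C and 4 h, where it was 0.796. Leaving that library out ended no call for the 10 genes in any contrast and added 1 at 4 h, a rise of Egln3 (log2 difference 1.26, limma adjusted p = 0.039). Hepatocyte markers marked the tissue as liver: all 10 listed, such as Alb and Ttr, were above 0 in every group, with summed levels of 36708 to 80777 units. In bulk tissue, fewer cells of a type and less RNA per cell cannot be told apart. The annotation places a gene on the opposite strand of 7 of the 10 genes (Adm, Hif1a, Pfkfb3, Bnip3, Slc2a1, Ndrg1 and Hk2). Strand use in read assignment was not given in the sources used here, so reads of such pairs cannot be told apart.

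**Figure D1:**
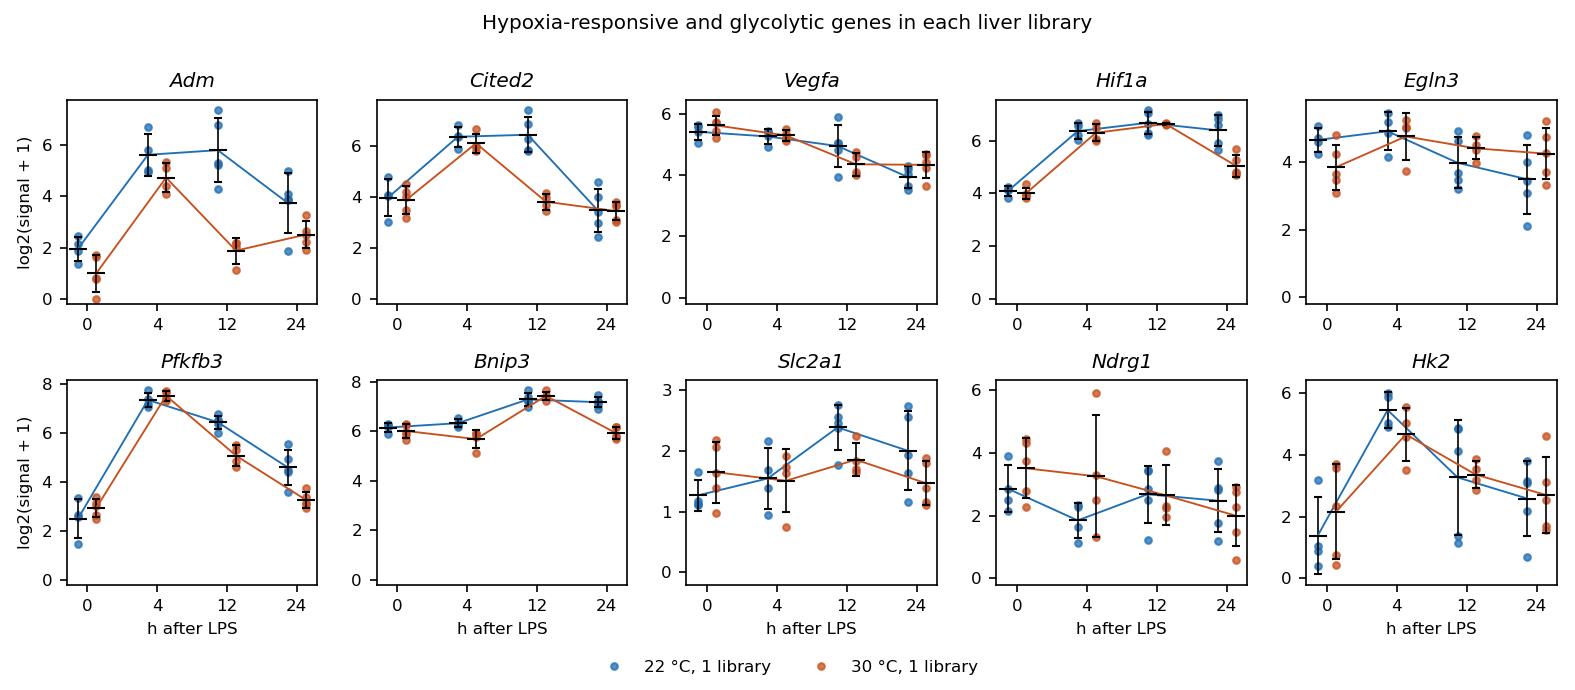
Each point is 1 liver library at 22 °C (blue) or 30 °C (orange), plotted as log2(signal + 1) against hours after LPS for each of the 10 genes. Black bars are the group mean ± SD of the log2 values and lines join the means. Adm, Cited2, Pfkfb3 and Hif1a lie well above their 0 h values at 4 h at both temperatures, and the 12 h points of Adm and Cited2 at 30 °C lie below all 12 h points at 22 °C.

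The first comparison asked how the genes changed after LPS at each temperature. It was fitted with limma on log2(signal + 1) over the 8702 genes whose signal averaged 5 or more, with p-values adjusted by Benjamini-Hochberg and a threshold of 0.05. Of the 10 genes, 9 were tested, and Slc2a1, with a mean of 2.54, fell under the filter. At 4 h 5 of the 9 rose at 22 °C (Adm, Cited2, Hif1a, Hk2 and Pfkfb3), against 15.8% of all tested genes that rose and 13.6% that fell. The same 5 rose at 30 °C, where 17.8% of all genes rose and 14.6% fell. None of the 9 fell at 4 h at either temperature by adjusted p, nor was any lower at an unadjusted p under 0.05. The median log2 difference of the 9 at 4 h was 2.28 at 22 °C and 2.23 at 30 °C, beside -0.10 and -0.04 for all tested genes.

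By 12 h 5 genes had risen at 22 °C, with Bnip3 now among them and Hk2 no longer (20.7% of all genes rose and 20.6% fell). At 30 °C 3 rose by 12 h, Bnip3, Hif1a and Pfkfb3, and Vegfa fell (19.3% and 18.9% of all genes). By 24 h Adm, Bnip3, Hif1a and Pfkfb3 were still raised at 22 °C, with Egln3 and Vegfa lower than at 0 h (19.0% and 18.0% of all genes). Only Adm and Hif1a of the 9 were raised at 30 °C by 24 h, and Vegfa was lower (15.3% and 14.4% of all genes). The 3 later times at each temperature share their 0 h libraries, so these counts are not independent of each other.

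Markers of other liver cells moved over the same times. The summed signal of 12 neutrophil and monocyte markers was 25.5 to 37.2 units at 22 °C and 34.0 to 63.5 at 30 °C at 0 h, and 107 to 142 and 147 to 262 at 4 h, with 3 of 5 tested higher at 4 h at each temperature (Il1b, S100a8 and S100a9). The sum of 13 Kupffer cell and macrophage markers was 240 to 390 and 308 to 382 at 0 h and 134 to 211 and 154 to 238 at 4 h. Of its 11 tested markers, 3 fell at 22 °C and 5 at 30 °C, and Marco rose at both. The sum of 12 endothelial markers had medians of 415 and 430 at 0 h and 208 and 213 at 4 h, and its 4 h libraries lay below all those of 0 h at each temperature. Of its 10 tested markers 7 fell at 22 °C and 6 at 30 °C, and Lyve1 rose at both. Il1b is also a cytokine gene that LPS is known to induce. Their part in the changes of the 9 genes since 0 h was not tested.

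Between consecutive later times, 1 gene of the 9 rose from 4 to 12 h at 22 °C (Bnip3) and 2 fell (Hk2 and Pfkfb3), where 11.9% of all genes rose and 14.4% fell. At 30 °C over the same step Bnip3 rose and 4 fell, Adm, Cited2, Pfkfb3 and Vegfa (12.3% and 17.9% of all genes). At 22 °C from 12 to 24 h 4 genes fell (Adm, Cited2, Pfkfb3 and Vegfa) and 0 rose, also at an unadjusted p under 0.05 (4.02% of all genes rose and 6.6% fell). At 30 °C from 12 to 24 h 3 fell, Bnip3, Hif1a and Pfkfb3, and 0 rose, again also without adjustment (11.6% and 9.52% of all genes). Pfkfb3 fell in both steps at both temperatures, and whether the steps differed between temperatures was not tested.

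Temperature was compared at each time. At 0 h 0 of the 9 genes differed between 30 °C and 22 °C by limma's adjusted p, and 0 had an unadjusted p under 0.05 (0.506% of all genes were called). At 4 h 0 differed by adjusted p and 1, Bnip3, at an unadjusted p under 0.05 (0.207% of all genes called). At 12 h 3 were lower at 30 °C, Adm, Cited2 and Pfkfb3 (4.26% of all genes called in either direction). At 24 h 3 were lower at 30 °C, Bnip3, Hif1a and Pfkfb3 (18.6% of all genes called). None of the 9 was higher at 30 °C at any time by adjusted p or at an unadjusted p under 0.05.

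A difference at one time does not show that the change since 0 h differed, which was tested as the interaction, the 30 °C change since 0 h less the 22 °C change. At 4 h 0 of the 9 passed, with 0 at an unadjusted p under 0.05 (0.0115% of all genes called). At 12 h 1 passed, Cited2 (0.276% of all genes called). At 24 h 3 passed, Hif1a, Pfkfb3 and Bnip3, all with the smaller change at 30 °C (8.95% of all genes called).

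**Figure D2:**
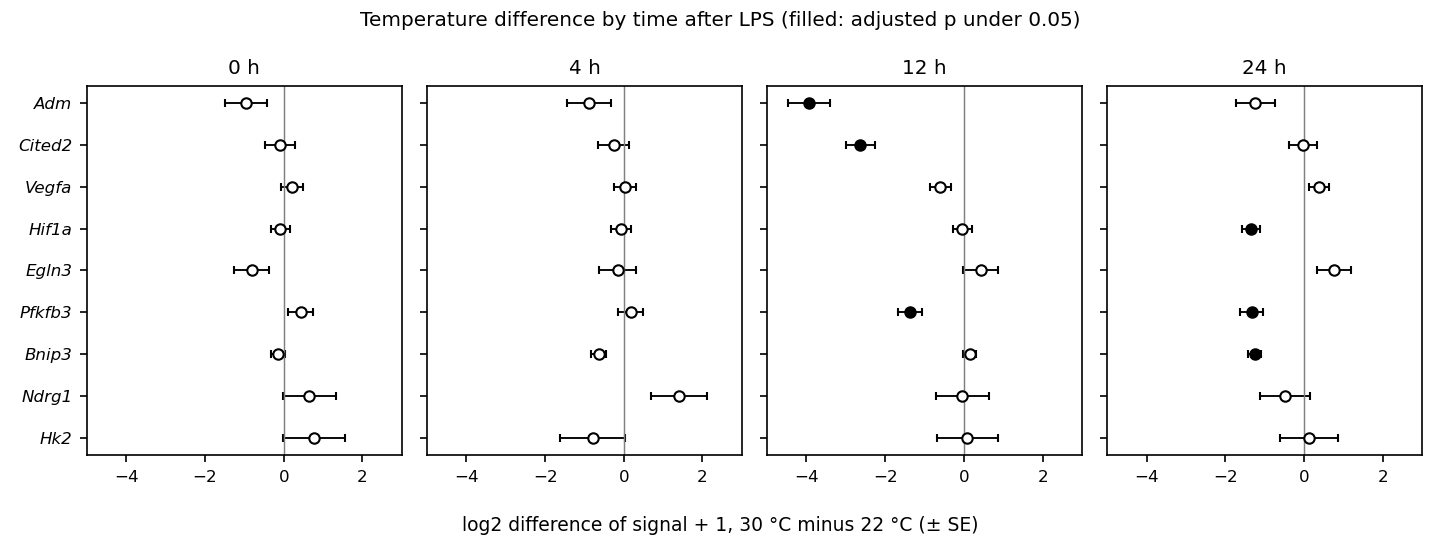
Each point is the limma log2 difference of signal + 1 at 30 °C minus 22 °C for 1 of the 9 tested genes, with its SE as the bar, at 0, 4, 12 and 24 h after LPS. Filled points passed an adjusted p under 0.05: Adm, Cited2 and Pfkfb3 at 12 h, and Hif1a, Pfkfb3 and Bnip3 at 24 h, all to the left of 0.

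Adm encodes adrenomedullin, a secreted peptide that widens vessels and tightens the endothelial barrier (gene ENSMUSG00000030790, chromosome 7, 110627661 to 110629820, plus strand, GRCm38). At 22 °C its signal was 4.49, 2.68, 1.54 and 3.44 at 0 h, 54.9, 30.2, 31.9 and 104 at 4 h, 39.0, 111, 36.8, 166 and 18.8 at 12 h, and 16.3, 13.5, 14.0, 2.60 and 31.3 at 24 h. At 30 °C it was 0.699, 2.31, 0, 2.13 and 0.762 at 0 h, 39.6, 16.1, 33.2 and 20.3 at 4 h, 1.19, 3.09, 3.51 and 3.56 at 12 h, and 4.63, 3.65, 8.80, 5.24 and 2.75 at 24 h. Every library at 4 h lay above every 0 h library of its temperature. At 12 h the lowest 22 °C library was more than any at 30 °C, and those at 30 °C were back among or just above the 0 h values.

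All differences are limma log2 differences of signal + 1 ± SE, negative where the later time or 30 °C is lower. Adm rose at 4 h by 3.67 ± 0.56 at 22 °C (limma adjusted p = 3.2e-06) and 3.75 ± 0.53 at 30 °C (adjusted p = 7.7e-07). At 12 h it was still raised at 22 °C, by 3.85 ± 0.53 (adjusted p = 4.3e-07), whereas at 30 °C the difference from 0 h was 0.89 ± 0.53 (adjusted p = 0.19) after a fall from 4 h (difference -2.86 ± 0.56, adjusted p = 0.00016). The temperatures differed at 12 h by -3.93 ± 0.53 (adjusted p = 1.7e-05). Means there were 74.1 ± 62.0 at 22 °C (SD, n = 5) and 2.84 ± 1.12 at 30 °C (SD, n = 4). The 12 h interaction of -2.96 ± 0.75 missed the threshold (adjusted p = 0.075), and passed without replicate 5 at 22 °C and 12 h (-3.34, adjusted p = 0.014).

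At 24 h Adm was raised by 1.79 ± 0.53 at 22 °C (adjusted p = 0.0077) and by 1.52 ± 0.50 at 30 °C (adjusted p = 0.02), and the temperatures differed by -1.24 ± 0.50 (adjusted p = 0.083). Replicate 4 at 22 °C, at 2.60, was the only 24 h library at 22 °C below the highest at 30 °C, and without it the difference was -1.71 (adjusted p = 0.011). The 30 °C rise at 24 h ended as a call without replicate 3 at 0 h (adjusted p = 0.072) or replicate 3 at 24 h (adjusted p = 0.062). At 0 h 3 of 4 libraries at 22 °C and 5 of 5 at 30 °C were at or under 3 reads, so the size of each difference from 0 h depends on the 1 unit added before the log.

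Vegfa encodes the main growth factor for vessel endothelium (chromosome 17, 46016993 to 46032369, minus strand). At 22 °C its signal was 46.1, 32.1, 41.8 and 48.6 at 0 h, 37.5, 41.2, 29.5 and 42.8 at 4 h, 32.4, 31.8, 27.0, 58.7 and 14.4 at 12 h, and 15.6, 10.4, 17.5, 11.5 and 18.5 at 24 h. At 30 °C it was 51.9, 50.9, 65.6, 36 and 41.9 at 0 h, 39.9, 36, 44.5 and 33.3 at 4 h, 22.8, 26.1, 14.9 and 16.1 at 12 h, and 24.2, 18.0, 24.9, 20.6 and 11.5 at 24 h. It passed the test as a rise at no time, and at 4 h the difference from 0 h was -0.15 ± 0.28 at 22 °C (limma adjusted p = 0.73) and -0.33 ± 0.27 at 30 °C (adjusted p = 0.37). By 24 h all libraries of both temperatures lay below all 0 h libraries.

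Vegfa fell by 24 h, with differences of -1.47 ± 0.27 at 22 °C (limma adjusted p = 4.2e-05) and -1.29 ± 0.25 at 30 °C (adjusted p = 0.00017). At 30 °C it had already fallen at 12 h (-1.27 ± 0.27, adjusted p = 0.00026), while at 22 °C the 12 h libraries ran from 14.4 to 58.7 and the difference was -0.47 ± 0.27 (adjusted p = 0.17). Without replicate 4 at 22 °C and 12 h, the highest of its group, that difference was -0.70 and passed (adjusted p = 0.029). The temperatures were not shown to differ at 12 h (-0.59 ± 0.27, adjusted p = 0.25), although they did without replicate 5 at 22 °C (-0.85, adjusted p = 0.036).

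Hif1a encodes the oxygen-regulated HIF subunit (chromosome 12, 73901375 to 73947530, plus strand). Its signal at 22 °C was 16.3, 16.7, 13.3 and 18.1 at 0 h, 63.7, 92.7, 72.9 and 103 at 4 h, 134, 142, 98.3, 78.7 and 74.4 at 12 h, and 126, 96.8, 114, 59.4 and 48.8 at 24 h. Its signal at 30 °C was 14.3, 14.2, 19.6, 13.1 and 14.6 at 0 h, 61.9, 89.1, 100 and 67.0 at 4 h, 99.4, 98.6, 96.8 and 101 at 12 h, and 26.8, 50.6, 25.3, 37.9 and 26.7 at 24 h. All later libraries lay above all 0 h libraries of their temperature. The 24 h libraries at 22 °C stayed in the range of the earlier times or just below it, and those at 30 °C had come down, with a single pair of libraries overlapping between the temperatures.

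Hif1a rose at 4 h by 2.28 ± 0.26 at 22 °C (limma adjusted p = 1.1e-08) and 2.30 ± 0.24 at 30 °C (adjusted p = 2.4e-09), and at 12 h by 2.60 ± 0.24 (adjusted p = 2e-10) and 2.64 ± 0.24 (adjusted p = 1.1e-10). The interactions at these times were 0.02 ± 0.36 (adjusted p = 1) and 0.04 ± 0.35 (adjusted p = 0.98). From 12 to 24 h it fell at 30 °C (-1.59 ± 0.24, adjusted p = 1e-05), against a difference of -0.29 ± 0.23 at 22 °C (adjusted p = 0.49). At 24 h it stood 2.31 ± 0.24 above 0 h at 22 °C (adjusted p = 2.4e-09) and 1.05 ± 0.23 above at 30 °C (adjusted p = 0.00059). The temperature difference at 24 h was -1.35 ± 0.23 (adjusted p = 6.9e-05) and the interaction -1.26 ± 0.34 (adjusted p = 0.015).

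Cited2 encodes a nuclear protein that is induced by HIF and, by competing for the coactivators CBP and p300, restrains it (chromosome 10, 17723218 to 17725674, plus strand). Cited2 signal at 22 °C was 16.0, 15.4, 26.7 and 7.08 at 0 h, 84.9, 81.5, 58.5 and 113 at 4 h, 57.4, 77.1, 117, 172 and 55.5 at 12 h, and 6.99, 23.4, 4.38, 9.65 and 14.9 at 24 h. Cited2 signal at 30 °C was 10.4, 15.2, 21.9, 8.17 and 17.6 at 0 h, 62.6, 55.4, 101 and 63.8 at 4 h, 11.8, 17.0, 14.9 and 10.0 at 12 h, and 11.8, 13.2, 11.6, 7.67 and 7.04 at 24 h. The high libraries were those at 4 h of both temperatures and at 12 h of 22 °C, none of which overlapped any other group. All other libraries stayed at or under 26.7.

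Cited2 rose at 4 h by 2.40 ± 0.39 at 22 °C (limma adjusted p = 1e-05) and 2.23 ± 0.37 at 30 °C (adjusted p = 1.2e-05). At 12 h the difference from 0 h was 2.48 ± 0.37 at 22 °C (adjusted p = 1.8e-06) and -0.07 ± 0.37 at 30 °C (adjusted p = 0.91). The fall came between 4 and 12 h at 30 °C (-2.30 ± 0.39, adjusted p = 2.5e-05) and between 12 and 24 h at 22 °C (-2.97 ± 0.35, adjusted p = 4.5e-07).

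The temperatures differed in Cited2 at 12 h by -2.64 ± 0.37 (limma adjusted p = 3.3e-05), with means of 96.0 ± 49.4 at 22 °C (SD, n = 5) and 13.4 ± 3.10 at 30 °C (SD, n = 4). The 12 h interaction was -2.54 ± 0.53 (adjusted p = 0.021). That interaction is a narrow call: it was lost with no filter on low genes (adjusted p = 0.066) and without replicate 4 at 22 °C and 0 h (0.054), replicate 3 at 30 °C and 0 h (0.053), replicate 2 at 22 °C and 12 h (0.056) or replicate 1 or 4 at 30 °C and 12 h (0.060 and 0.062), where the values in brackets are adjusted p. Its value stayed between -2.59 and -2.22 in those fits. At 24 h the difference between temperatures was -0.03 ± 0.35 (adjusted p = 0.97).

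**Figure D3:**
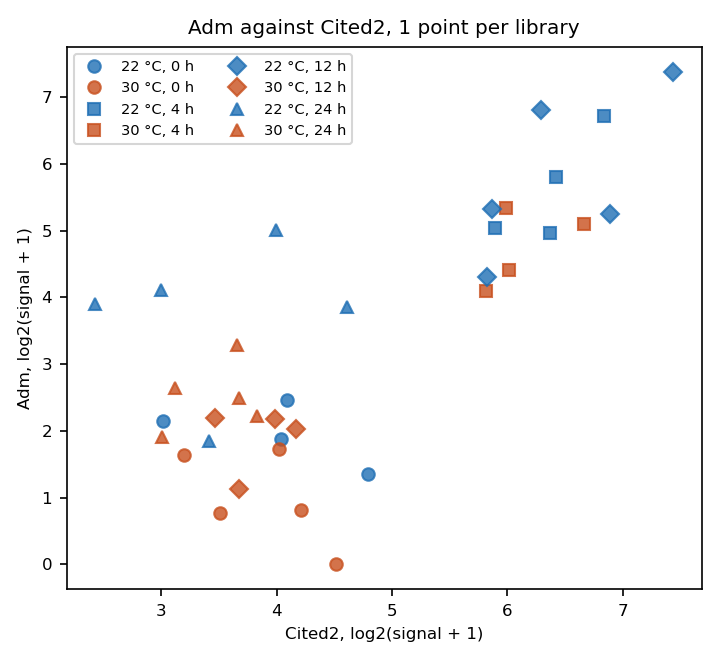
Each point is 1 liver library, with Cited2 on the x axis and Adm on the y axis, both as log2(signal + 1). Colour gives the temperature and shape the time after LPS. The 13 libraries of 4 h at both temperatures and 12 h at 22 °C form the upper right group, while 12 h libraries at 30 °C (orange diamonds) lie among those of 0 h and 24 h.

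Egln3 encodes a HIF prolyl hydroxylase that is itself a HIF target (chromosome 12, 54178981 to 54203860, minus strand). Its signal was 16.8 to 42.6 at 22 °C and 12.2 to 37.3 at 30 °C at 4 h, against 17.8 to 32.6 and 7.53 to 26.9 at 0 h, so the groups overlapped. At 24 h it was 15.2, 9.84, 3.29, 7.50 and 27.1 at 22 °C and 9.01, 25.9, 36.2, 18.2 and 12.1 at 30 °C. The call at 24 h and 22 °C (-1.17 ± 0.45, limma adjusted p = 0.038) rested on few libraries, since leaving out any 1 of replicates 1, 2 or 4 at 0 h or 2, 3 or 4 at 24 h ended it (adjusted p up to 0.153), as did testing without the filter (0.089) or with only the 2 groups (0.074). At 30 °C the 24 h difference was 0.40 ± 0.42 (adjusted p = 0.51) and the interaction 1.57 ± 0.61 (adjusted p = 0.11), which passed without replicate 5 at 22 °C and 24 h (1.90, adjusted p = 0.032).

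Pfkfb3 makes fructose 2,6-bisphosphate, the strongest activator of phosphofructokinase, and is the inducible form of its family (chromosome 2, 11471433 to 11554077, minus strand). At 22 °C it was 9.18, 1.72, 5.16 and 4.97 at 0 h, 213, 133, 144 and 168 at 4 h, 107, 92.0, 82.2, 88.8 and 63.2 at 12 h, and 21.6, 29.2, 45.4, 10.9 and 20.4 at 24 h. At 30 °C it was 5.27, 7.81, 6.95, 9.50 and 4.51 at 0 h, 209, 168, 202 and 155 at 4 h, 28.0, 23.2, 38.8 and 44.5 at 12 h, and 7.42, 12.4, 6.71, 9.48 and 7.81 at 24 h. The 4 h libraries were the highest at both temperatures, with no overlap with any other time. At 12 h all 22 °C libraries lay above all 30 °C libraries, and at 24 h only replicate 4 at 22 °C lay within the 30 °C range.

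On the scale of log2(signal + 1), Pfkfb3 had the largest rise of the 9 genes at 4 h, 4.85 ± 0.33 at 22 °C (limma adjusted p = 5.1e-14) and 4.59 ± 0.31 at 30 °C (adjusted p = 4.7e-14). This ranking may depend on the 1 unit added before the log. At 0 h, 3 of 4 libraries at 22 °C and 5 of 5 at 30 °C were at or under 3 reads for Adm. For Hk2 these were 3 of 4 and 2 of 5. From 4 to 12 h it changed by -0.91 ± 0.31 at 22 °C (adjusted p = 0.026) and -2.45 ± 0.33 at 30 °C (adjusted p = 4.3e-07), and the difference between these steps was not tested. The 22 °C step is a narrow call, lost with no filter (adjusted p = 0.061), with upper-quartile rescaling (0.055) and without replicate 1 or 4 at 4 h or replicate 5 at 12 h (0.057 to 0.098). From 12 to 24 h it changed by -1.85 ± 0.29 (adjusted p = 3.8e-05) and -1.81 ± 0.31 (adjusted p = 4.3e-05).

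The temperatures differed in Pfkfb3 at 12 h by -1.36 ± 0.31 (limma adjusted p = 0.0064) and at 24 h by -1.33 ± 0.29 (adjusted p = 0.0012). By 24 h it was 2.09 ± 0.31 above 0 h at 22 °C (adjusted p = 1.4e-06) and 0.33 ± 0.29 above at 30 °C (adjusted p = 0.42), an interaction of -1.76 ± 0.42 (adjusted p = 0.0071) that missed the threshold when only the 4 groups compared were fitted (0.054). At 12 h the interaction of -1.79 ± 0.44 missed it (adjusted p = 0.065) and passed without replicate 1 at 22 °C and 0 h (0.042) or replicate 5 at 22 °C and 12 h (0.023).

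Hk2 encodes the inducible hexokinase that traps glucose in the cell and is scarce in healthy hepatocytes (chromosome 6, 82725025 to 82774454, minus strand). At 22 °C it was 1.09, 0.325, 8.19 and 0.834 at 0 h, 63.9, 58.0, 31.9 and 28.9 at 4 h, 1.21, 28.7, 27.5, 16.6 and 1.61 at 12 h, and 7.51, 7.93, 3.53, 0.631 and 13.1 at 24 h. At 30 °C it was 0.339, 12.2, 10.8, 0.688 and 4.04 at 0 h, 45.7, 23.3, 31.7 and 10.4 at 4 h, 6.33, 13.7, 10.6 and 8.08 at 12 h, and 2.23, 7.75, 23.3, 1.97 and 4.86 at 24 h. The 4 h libraries at 22 °C lay above all those of 0 h, while at 30 °C 1 of the 4 overlapped.

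Hk2 rose at 4 h by 4.08 ± 0.83 at 22 °C (limma adjusted p = 0.00022) and 2.51 ± 0.78 at 30 °C (adjusted p = 0.013), and the rises were not shown to differ (interaction -1.57 ± 1.14, adjusted p = 0.86). At 12 h the values at 22 °C fell into low and high libraries, with replicates 1 and 5 under 2 units, and the difference from 0 h of 1.89 ± 0.78 missed the threshold (adjusted p = 0.052). It passed without replicate 3 at 0 h (0.017) or without replicate 1 (0.014) or 5 (0.017) at 12 h. The fall from 4 to 12 h at 22 °C (-2.19 ± 0.78, adjusted p = 0.037) was lost without replicate 1, 2 or 3 at 4 h or 1 or 5 at 12 h (adjusted p 0.0501 to 0.129).

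Slc2a1, the carrier GLUT1 that brings glucose into many cell types, was near the limit of detection (chromosome 4, 119108711 to 119137983, plus strand). Its highest library was 5.75 units, at 22 °C and 12 h, and 23 of its 36 values were at or under 3 reads. At 22 °C and 12 h the 5 libraries were 4.20, 4.87, 4.50, 5.75 and 2.41, against 1.17, 1.25, 2.13 and 1.19 at 0 h. With the filter removed, that was the only one of 17 contrasts of Slc2a1 to pass (1.12 ± 0.33, limma adjusted p = 0.016), and 1 of the 5 libraries at 12 h was at or under 3 reads. The interaction at 12 h was -0.91 ± 0.47 (adjusted p = 0.75).

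Bnip3 encodes a mitochondrial membrane protein that marks mitochondria for removal (mitophagy) and is a standard HIF target (chromosome 7, 138890836 to 138909519, minus strand). At 22 °C it was 74.3, 58.4, 70.0 and 77.4 at 0 h, 79.9, 69.9, 74.5 and 92.4 at 4 h, 163, 146, 147, 199 and 124 at 12 h, and 132, 177, 149, 119 and 143 at 24 h. At 30 °C it was 75.7, 77.5, 62.1, 56.5 and 48.6 at 0 h, 60.2, 52.7, 33.9 and 58.4 at 4 h, 169, 168, 199 and 149 at 12 h, and 49.9, 53.4, 55.2, 71.4 and 71.0 at 24 h. The 4 h differences from 0 h were small and were not called (0.17 ± 0.18 at 22 °C, limma adjusted p = 0.52). Its 12 h libraries lay above all 0 h and 4 h libraries at both temperatures, and at 24 h every 22 °C library was above every 30 °C library.

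Bnip3 rose at 12 h by 1.13 ± 0.17 at 22 °C (limma adjusted p = 2.7e-06) and 1.42 ± 0.17 at 30 °C (adjusted p = 4e-08). By 24 h it was still 1.02 ± 0.17 above 0 h at 22 °C (adjusted p = 1.5e-05), and at 30 °C the difference was -0.08 ± 0.16 (adjusted p = 0.75) after a fall from 12 h (-1.50 ± 0.17, adjusted p = 7.9e-08). The temperatures differed by -1.25 ± 0.16 at 24 h (adjusted p = 1.3e-06), with means of 144 ± 21.6 at 22 °C and 60.2 ± 10.2 at 30 °C (SD, n = 5 each), and the interaction was -1.11 ± 0.24 (adjusted p = 0.0029). At 4 h the 30 °C libraries also lay below the 22 °C libraries (-0.64 ± 0.18, adjusted p = 0.18). Under upper-quartile rescaling Bnip3 was lower at 4 h than at 0 h at 30 °C (-0.47, adjusted p = 0.034), where the fit without rescaling gave -0.33 ± 0.17 (adjusted p = 0.15).

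Ndrg1, a stress-responsive cytoplasmic protein often used as a hypoxia marker, gave no call in any of the 17 contrasts (chromosome 15, 66929318 to 66969640, minus strand). Its values spread widely within groups, from 3.80 to 20.9 at 30 °C and 0 h and from 1.49 to 59.3 at 30 °C and 4 h. The highest, 59.3, was in replicate 4 at 30 °C and 4 h, the library that stood apart, and without it the difference from 0 h moved from -0.26 to -1.14 (limma adjusted p = 0.18). The lowest adjusted p was at 24 h and 30 °C (-1.51 ± 0.64, 0.073), which passed without replicate 2 at 0 h (-1.83, 0.040).

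Cell markers also differed between the temperatures. At 24 h the endothelial sum was 194 to 323 units at 22 °C (median 212) and 298 to 379 at 30 °C (median 346), with Clec4g listed at 0 in all 5 libraries at 22 °C, and 5 of the 10 tested were higher at 30 °C. The Kupffer cell and macrophage sum was 61.5 to 181 at 22 °C and 149 to 197 at 30 °C (2 of 11 tested higher), and that of neutrophil and monocyte markers 146 to 300 and 212 to 399 (0 of 5 called, 2 at an unadjusted p under 0.05). Of 10 hepatocyte markers 4 were higher at 30 °C, of 8 tested stellate cell markers 3 were higher, and of 4 tested red cell markers 2 were lower, where 18.6% of all tested genes were called in either direction. The part of these differences in the 24 h results for Hif1a, Pfkfb3 and Bnip3 was not tested.

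At 12 h, when Adm, Cited2 and Pfkfb3 were lower at 30 °C, endothelial sums overlapped (168 to 256 units at 22 °C and 180 to 244 at 30 °C), as did Kupffer cell and macrophage sums (86.6 to 118 and 90.0 to 115) and stellate cell sums (398 to 577 and 488 to 551). None of the tested markers of those 3 lists was called there by limma, with 1 Kupffer cell and 1 stellate cell marker at an unadjusted p under 0.05. The neutrophil and monocyte sum was higher at 30 °C, 339 to 542 against 220 to 307. None of its 5 tested markers was called (2 at an unadjusted p under 0.05). The hepatocyte sum was lower, 48663 to 55992 against 58482 to 71933. Of 10 hepatocyte markers 2 were called and 6 had an unadjusted p under 0.05. Of all tested genes, 4.26% were called there in either direction and 16.84% had an unadjusted p under 0.05. The red cell sum was 924 to 2517 at 22 °C and 855 to 911 at 30 °C, with none of 4 called (1 at an unadjusted p under 0.05). Their part in the 12 h results was not tested.

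Of 12 tested genes of the HIF machinery, 1 changed at 4 h at 22 °C, the fall of Egln1, and at 30 °C there were 4 rises and 4 falls (15.8% of all tested genes rose and 13.6% fell at 22 °C, 17.8% and 14.6% at 30 °C). The changes at 4 h were not shown to differ between temperatures, since limma's interaction called 0 of the 12, with 2 at an unadjusted p under 0.05. The rises numbered 5 at 22 °C and 4 at 30 °C at both 12 h and 24 h, each time beside 1 fall, that of Hsp90ab1. Of all tested genes, 20.7% rose and 20.6% fell at 12 h and 19.0% and 18.0% at 24 h at 22 °C, and 19.3% and 18.9%, then 15.3% and 14.4%, at 30 °C. Epas1, which encodes HIF-2 alpha, rose by 12 h by 1.27 ± 0.19 at 22 °C (limma adjusted p = 2.6e-06) and 1.05 ± 0.19 at 30 °C (adjusted p = 4.4e-05). Egln1, the main HIF hydroxylase, fell at 4 h, with differences of -1.86 ± 0.48 at 22 °C (adjusted p = 0.0031) and -1.40 ± 0.46 at 30 °C (adjusted p = 0.017).

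Between temperatures at 24 h, Vhl was lower at 30 °C (-1.31 ± 0.44, limma adjusted p = 0.035; interaction -2.21 ± 0.64, adjusted p = 0.026). It was the only one of the 12 with a called interaction at 24 h, and Elob, a partner of Vhl in its ligase, was the only one higher at 30 °C. Elob is named after its value was seen.

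**Figure D4:**
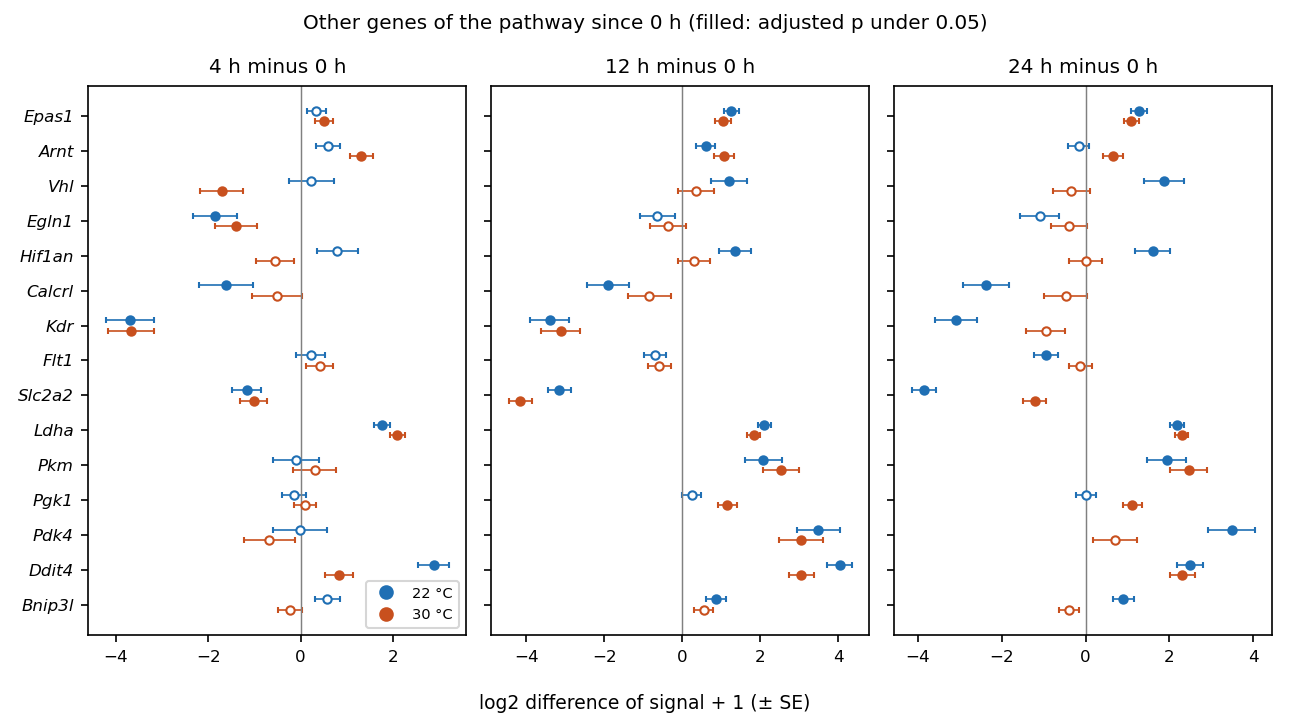
Each point is the limma log2 difference of signal + 1 from 0 h for 1 gene of the pathway at 22 °C (blue) or 30 °C (orange), with its SE as the bar, at 4, 12 and 24 h. Filled points passed an adjusted p under 0.05. Ldha lies to the right of 0 at every time, Slc2a2 lies to the left, and at 24 h Slc2a2, Kdr and Calcrl lie nearer 0 at 30 °C than at 22 °C.

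Of 23 tested glycolysis genes 2 rose and 2 fell at 4 h at 22 °C, 7 and 6 at 12 h, and 8 and 2 at 24 h. At 30 °C the counts were 2 and 4, 8 and 5, and 10 and 2. The 2 rises at 4 h lie below the 15.8% and 17.8% of all tested genes that rose, and the other shares for all genes are those given for the HIF machinery. Ldha, the lactate dehydrogenase subunit that favours lactate, rose at every time and temperature, by 1.76 ± 0.17 (22 °C, 4 h, limma adjusted p = 3.7e-10) to 2.29 ± 0.15 (30 °C, 24 h, adjusted p = 5e-14). Pkm, the pyruvate kinase gene of non-hepatocyte cells, did not pass at 4 h but rose by 12 h, by 2.09 ± 0.47 at 22 °C (adjusted p = 0.00048) and 2.54 ± 0.47 at 30 °C (adjusted p = 3.9e-05). Hk1 and Pfkl were under the filter.

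Slc2a2, the hepatocyte glucose carrier GLUT2, had means of 151 ± 22.8 at 22 °C and 0 h (SD, n = 4) and 10.4 ± 5.52 at 24 h (n = 5), a difference of -3.85 ± 0.30 (limma adjusted p = 2.2e-12). At 12 h the difference from 0 h was -3.15 ± 0.30 at 22 °C (adjusted p = 2e-10) and -4.16 ± 0.30 at 30 °C (adjusted p = 2.6e-13), and these were not shown to differ (interaction adjusted p = 0.32). At 24 h it was -1.21 ± 0.28 at 30 °C (adjusted p = 0.0011), with an interaction of 2.64 ± 0.41 (adjusted p = 7.5e-05). Of the 23 tested glycolysis genes, 4 were higher and 1 lower at 30 °C than at 22 °C at 24 h (18.6% of all genes called). Pdk4, which restrains pyruvate entry to the citric acid cycle, was lower at 30 °C than at 22 °C at 24 h (-1.91 ± 0.52, adjusted p = 0.0092; interaction -2.77 ± 0.76, adjusted p = 0.018), in the direction of Pfkfb3 and Bnip3.

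Of 26 tested further hypoxia targets 9 rose and 5 fell at 4 h at 22 °C, 12 and 6 at 12 h, and 10 and 4 at 24 h. The counts at 30 °C were 8 and 5, 13 and 7, and 10 and 3. Falls such as the 6 of 26 at 12 h and 22 °C are near the 20.6% of all tested genes that fell there, and 20.7% of all rose. The shares for the other times and for 30 °C are those given for the HIF machinery. Between temperatures the 26 went both ways. At 4 h 1 was lower at 30 °C and 0 higher, at 12 h 3 were lower and 1 higher. At 24 h 5 were lower at 30 °C and 3 higher, and the 24 h interaction called 3 in each direction. Of all tested genes 0.207%, 4.26% and 18.6% differed at these times, and 8.95% had a called 24 h interaction. Ddit4, an inhibitor of mTORC1 that HIF and glucocorticoids induce, differed in level between temperatures: at 4 h its mean was 33.9 ± 9.52 at 22 °C and 6.12 ± 1.18 at 30 °C (SD, n = 4 each), a difference of -2.27 ± 0.33 (limma adjusted p = 0.00063), and at 12 h the difference was -1.20 ± 0.31 (adjusted p = 0.021). Its change since 0 h was not shown to differ, with interactions of -2.05 ± 0.46 at 4 h (adjusted p = 0.15) and -0.98 ± 0.44 at 12 h (adjusted p = 0.36). Bnip3l, the close relative of Bnip3, rose at 12 h at 22 °C (0.88 ± 0.25, adjusted p = 0.0055) and at 24 h was lower at 30 °C, with means of 43.4 ± 18.1 against 82.4 ± 17.4 at 22 °C (SD, n = 5 each, adjusted p = 0.0027; interaction -1.29 ± 0.35, adjusted p = 0.017). P4ha1, a collagen prolyl hydroxylase, gave no call since 0 h, and Pdk1, a kinase that restrains pyruvate dehydrogenase, passed once, as a fall at 30 °C and 12 h (-0.95 ± 0.36, adjusted p = 0.037).

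Several receptors for Adm and Vegfa fell after LPS. Of 8 tested receptor and related genes 1 rose and 4 fell at each later time at 22 °C. At 30 °C 1 rose at each time while 3, 2 and 1 fell at 4, 12 and 24 h. The falls at 22 °C include Vegfb, a growth factor and not a receptor, at 12 and 24 h. Those at 30 °C include Vegfb at each time, and at 24 h it was the only fall. A single rise of 8 is near the share of all tested genes that rose, which was 15.3% to 20.7% over these comparisons. The shares that fell at 4, 12 and 24 h were 13.6%, 20.6% and 18.0% at 22 °C. At 30 °C they were 14.6%, 18.9% and 14.4%, and the 2 falls at 12 h and 1 at 24 h there are near them. The falls stood beside those of the endothelial markers at 4 h given above, and their part was not tested. Kdr, the main Vegfa receptor on endothelium, was listed at 0 in some 4 h libraries and had means of 17.8 ± 4.24 at 22 °C and 0 h and 0.743 ± 1.49 at 4 h (SD, n = 4 each), a difference of -3.70 ± 0.52 (limma adjusted p = 7.2e-07), and at 30 °C the difference was -3.67 ± 0.49 (adjusted p = 2.8e-07). At 24 h Kdr was higher at 30 °C by 2.76 ± 0.46 (adjusted p = 5.1e-05; interaction 2.14 ± 0.68, adjusted p = 0.042). Calcrl, the receptor of Adm, was higher at 30 °C at 24 h by 1.84 ± 0.52 (adjusted p = 0.011; interaction 1.91 ± 0.75, adjusted p = 0.11), beside the higher endothelial marker sum given above.

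Its partner Ramp2 fell at 4 h at 22 °C (-3.03 ± 0.50, limma adjusted p = 1.2e-05). At 22 °C it was also lower at 12 h, rose from 4 to 12 h and from 12 to 24 h, and was not called at 24 h. At 30 °C no difference of Ramp2 from 0 h had an unadjusted p under 0.05. Its interaction at 4 h had an unadjusted p under 0.05 but was not called. Ramp3 was under the filter and listed at 0 in all libraries of 4 groups. Flt1 was higher at 30 °C at 24 h by 0.92 ± 0.27 (adjusted p = 0.017). Nrp2, a coreceptor, was the 1 gene of the list that rose, by 2.41 ± 0.30 at 22 °C and 4 h (adjusted p = 7.8e-08).

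Over the 36 libraries, which share their groups and therefore the response to LPS, the log2 values of the genes were compared with each other and with all tested genes of mean signal at least 20. As descriptions only, Adm correlated with Pfkfb3 at r = 0.81 and with Cited2 at 0.75, Hif1a with Pfkfb3 at 0.79, and Cited2 with Bnip3 at 0.01. The genes most like Pfkfb3 were Plscr1 (r = 0.967) and Gbp6 (0.960), both known as interferon-induced. Most like Hif1a was Cd14, the LPS coreceptor (0.949), and most like Hk2 were the chemokine Ccl7 (0.770) and the interferon-induced Mx2 (0.769). For Adm they were Fam199x (0.840) and H3f3b (0.825), for Cited2 Pnrc1 (0.869) and Samd9l (0.867), for Bnip3 H1f0 (0.856) and Wipi1 (0.843), and for Vegfa Cat (0.844) and Ugt2b36 (0.843). Egln3 (Spg7, 0.651, and Edem1, 0.620) and Ndrg1 (Igsf11, 0.723, and Olfr1031, 0.720) had no gene above 0.73.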

How the data were processed

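Livers were flash frozen and RNA libraries made with a modified CEL-Seq2 protocol (3′-end tags, barcode and unique molecular identifier) on bulk RNA, per the labels' protocols. Trimmomatic, kallisto and sleuth were used, per the submitters' processing notes. Genome build, index, use of molecular identifiers and scaling between libraries were not given in the sources used here. Per gene and library, the authors deposited a signal (scaled reads per base), used here as the main value, and a second signal named TPM whose sums ran from 757040 to 1746038 per library, so it is not plain TPM. kallisto can divide reads among near-identical copies and isoforms.

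Of 34829 identifiers, 34406 matched a symbol in GENCODE M21 (GRCm38, positions 1-based). The worth of 1 read was estimated from the commonest low value of genes with 1 transcript; 16.8% to 19.6% of values were whole multiples within 0.01 read, so reads were not recovered and no count model was fitted. Depth limits cover counting error only. limma 3.58.1 in R 4.3.3 (lmFit, eBayes with a trend) was fitted to log2(signal + 1) for the 8702 genes with a mean of at least 5, two-sided, with 1 mean for each of 8 groups and Benjamini-Hochberg adjustment within each of 17 contrasts. A fold on this scale understates the change of low genes. The fit was tested on simulated data: a first single draw exceeded the limit set for false calls, and the test was then changed to pool many draws, with a new limit, which it met.

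The 10 genes, the pathway and marker lists (HIF machinery, further hypoxia targets, glycolysis, receptors, hepatocyte, endothelial, Kupffer, neutrophil and monocyte, stellate and red cell) and the tests were chosen with earlier results of these data known. From the pathway lists, genes fixed by name and the 3 with the largest F over groups qualified for naming, and for each of the 10 genes the 2 tested genes most correlated with it at a mean of at least 20; some genes that qualified are not reported here. Promoter sequences are from RefSeq. Alternatives were the second signal, pseudocounts of 0.5 and 5, no filter, upper-quartile rescaling, fitting only the compared groups, a replicate block and leaving out each library.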

Additional observations from a re-analysis of the deposited data

Results flagged for a closer look

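In 6 of 80 sets of a gene and a group, the highest library stood apart from the rest by a larger gap than Dixon's test allows. The gaps were taken on the signal and not on its log2. For normally distributed values chance flags about 1 in 20, and whether these values are so distributed was not tested. They were Hif1a at 30 °C and 0 h (replicate 3, 19.6 units), Slc2a1 at 22 °C and 0 h (replicate 3, 2.13), Ndrg1 at 30 °C and 4 h (replicate 4, 59.3) and at 30 °C and 12 h (replicate 2, 15.8), and Hk2 at 22 °C and 0 h (replicate 3, 8.19) and at 30 °C and 24 h (replicate 3, 23.3).

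The change since 0 h differed between temperatures by a test of the difference itself (limma, adjusted over all tested genes) in 4 cases. They were Cited2 at 12 h (-2.54, adjusted p = 0.021) and, at 24 h, Hif1a (-1.26, adjusted p = 0.015), Pfkfb3 (-1.76, adjusted p = 0.0071) and Bnip3 (-1.11, adjusted p = 0.0029). In each the change was smaller at 30 °C.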

How the results depend on the processing

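Of 1224 differences of the tested genes under the alternatives other than leaving out a library, 1202 kept their direction or, where not called, their side of the threshold, 15 lost it and 7 gained it; when 1 library was left out, 1587 of 1620 kept it, 21 lost it and 12 gained it. No called difference reversed. All 153 differences kept their side of the threshold with the second signal and with a pseudocount of 0.5. With a pseudocount of 5, 3 of the 10 genes passed the 12 h interaction where 1 had, 0 did with no filter and 2 with the replicate block. Adm at 24 h and 30 °C lost its call with a pseudocount of 5 (0.68, adjusted p = 0.185) and with no filter (adjusted p = 0.051). With no filter 1 gene of the 10 was called from 4 to 12 h at 22 °C instead of 3, and over all genes 3 were called for the 12 h interaction instead of 24 and 2 for that at 4 h instead of 1. The second signal called 0 genes for the 4 h interaction.

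Fitting only the compared groups called 0 genes for the 4 h interaction, 603 from 12 to 24 h at 22 °C instead of 924 (2 of the 10 instead of 4, with Adm at adjusted p = 0.062 and Vegfa at 0.084), 13 instead of 44 between temperatures at 0 h and 7 instead of 18 at 4 h. With it Hk2 fell from 4 to 12 h at 30 °C (-1.30, adjusted p = 0.048), and at 22 °C the larger difference of -2.19 missed the threshold (adjusted p = 0.055). Upper-quartile rescaling moved the median over all tested genes by over 0.1 in 7 of 17 contrasts, most from 4 to 12 h at 30 °C (-0.03 to 0.21), where Vegfa lost its call (-0.69, adjusted p = 0.057). The cause of these shifts was not tested, except that fewer libraries entered the fits of compared groups.

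Leaving out 1 library gave 188 (without replicate 2 at 22 °C and 12 h) to 590 genes (without replicate 5 there) between temperatures at 12 h, where all libraries gave 371. The range was 4 to 26 at 4 h (18 with all), 3 (without replicate 2 at 22 °C or 1 at 30 °C, 12 h) to 121 (without replicate 5 at 22 °C and 12 h) for the 12 h interaction and 0 to 3 for that at 4 h. For the 10 genes it gave 1 to 3 calls from 4 to 12 h at 22 °C and 0 to 3 for the 12 h interaction.

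No pairing by replicate number was seen over all tested genes. Deviations from the group means correlated at -0.13 to 0.11 (median -0.0006) between same-numbered libraries of different groups. Between libraries of other numbers they correlated at -0.26 to 0.36 (median -0.0005). Of 36 libraries, 10 correlated best with one of their own number, and how many would by chance was not computed. A pairing that touches only some genes was not tested. With the replicate block, 76 genes were called for the 12 h interaction instead of 24, Pfkfb3 among them (adjusted p = 0.039), Hk2 passed at 12 h and 22 °C (adjusted p = 0.030) and Egln3 at 24 h and 22 °C did not (adjusted p = 0.063). The titles, used here, and the descriptions number 2 libraries at 30 °C and 12 h differently. With the numbers of the descriptions as the block, an alternative chosen after seeing the data, 34 genes were called for that interaction, Pfkfb3 was not among them (adjusted p = 0.074), and Hk2 and Egln3 moved as with the titles' numbers. Depth limits Slc2a1, Hk2, Ndrg1 and the 0 h values of Adm, where many libraries hold an estimated 3 reads or fewer.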
